A study of Mus musculus with 8 samples.

Results

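The genes described here are 4 members of the aquaporin family, Aqp1, Aqp3, Aqp5 and Aqp11, in D2A1 mouse mammary carcinoma cells and in D2A1-m1 and D2A1-m2, the sublines selected from them for metastasis. They were taken by gene symbol from the annotation of the MouseWG-6 v2.0 BeadChip (Illumina), where 7 of 45281 probes carry one of these symbols, among 23 probes for 12 aquaporin genes. Aqp1 and Aqp5 were chosen because they were already known to be higher in the sublines, and Aqp3 and Aqp11 joined them with the same results in view. Their differences between lines are therefore given as a description, with no p-value. Whether the main fit called them is listed beside the share of all genes called. Calls under alternative processing are listed at the end and carry no weight as evidence.

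RNA came from cultured cells of the parental line (3 arrays), D2A1-m1 (2 arrays) and D2A1-m2 (3 arrays), with no treatment named. D2A1 was taken from a mammary tumour that a hyperplastic alveolar nodule line had formed in a BALB/c mouse. Each subline was grown out of lung metastases of a mammary tumour and then carried through repeated tail vein passages, each in 1 mouse, so that it stands for 1 selected lineage and its cultures measure the spread within it. Batch 1 of the arrays held D2A1 replicates 1 and 2 and the first replicate of each subline, and batch 2 held the rest. At a detection p of at most 0.01 against the negative control beads, 13419 to 13768 probes were detected in batch 1 and 14387 to 14942 in batch 2. Of 14 mammary epithelial markers on the array, Krt8, Krt18, Cldn7, Gata3 and Muc1 were detected in every line and 9, among them Epcam and Cdh1, on no array.

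Aquaporins are channels of cell membranes that let water follow an osmotic gradient, and some also pass glycerol or hydrogen peroxide. Aqp1 is the water channel of red cells, kidney tubules and capillary endothelium, and Aqp5 that of the apical membrane of salivary, lacrimal and airway gland cells and of flat alveolar cells in the lung. Aqp3 carries water and glycerol in epidermis and kidney collecting ducts, and Aqp11 is an intracellular channel whose loss in mice gives cystic kidneys.

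Aqp1 and Aqp5 were detected in all 3 lines and were higher in both sublines than in D2A1, most of all in D2A1-m1. Aqp3 was detected on none of the 8 arrays and Aqp11 on 1 of them. None of the 16 probes for the 8 other aquaporins was detected. Aqp1 also differed between the array batches by more than any other tested gene.

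The 250 bases before the annotated start of Aqp1 and of Aqp5 (RefSeq, GRCm38.p6, plus strand) are shown because these are the members that were higher together in the sublines. Capitals mark matches on either strand to a GC box (GGGCGG), an E-box (CANNTG), a TATA box (TATAAA) or an AP-1 motif (TGAGTCA).
Aqp1, chr6:55336049-55336298: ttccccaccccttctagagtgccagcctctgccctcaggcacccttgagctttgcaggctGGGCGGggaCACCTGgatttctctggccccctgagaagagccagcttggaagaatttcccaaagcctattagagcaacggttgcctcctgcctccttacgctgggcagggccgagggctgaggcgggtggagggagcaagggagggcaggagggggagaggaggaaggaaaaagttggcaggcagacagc
Aqp5, chr15:99590778-99591027: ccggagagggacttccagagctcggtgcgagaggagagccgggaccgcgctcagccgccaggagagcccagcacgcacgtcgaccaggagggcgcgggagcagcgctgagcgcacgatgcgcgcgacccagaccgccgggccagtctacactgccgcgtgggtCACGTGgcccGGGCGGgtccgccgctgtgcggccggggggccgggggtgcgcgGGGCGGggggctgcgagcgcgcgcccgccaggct
The Aqp1 window held 1 GC box, 190 to 185 bases before the start, and 1 E-box, at 181 to 176. The Aqp5 window held 2 GC boxes, at 77 to 72 and at 34 to 29 bases, and 1 E-box, at 87 to 82. A GC box was present in 32.7% of the 32851 RefSeq windows of this length and an E-box in 66.2%, so that both are common. No TATA box or AP-1 match lay in either window, against 12.4% and 4.46% of all windows. The Aqp5 window was 78.4% G and C, a share that 1.93% of windows reached, and the Aqp1 window 62.0%, which 23.3% reached. The motif matches are letters only and were not tested as sites.

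Aqp1 has 3 probes, and probe ILMN_2756486 was detected on all arrays. Its deposited intensities, in arbitrary units before any normalization, were 104, 73.6 and 320 on D2A1 replicates 1, 2 and 3. They were 467 and 2094 on D2A1-m1 replicates 1 and 2, and 296, 1010 and 857 on D2A1-m2 replicates 1, 2 and 3. Both D2A1-m1 arrays were brighter than every D2A1 array, whereas D2A1 replicate 3, of batch 2, was slightly brighter than D2A1-m2 replicate 1, of batch 1. Probe ILMN_2980661 gave 63.9, 59.1 and 148 in D2A1, 175 and 1217 across D2A1-m1, and 140, 538 and 562 across D2A1-m2. Probe ILMN_2980663, whose D2A1 and D2A1-m2 values overlapped also after normalization, gave 52.9, 51.2 and 85.3 in D2A1, 99.6 and 483 across D2A1-m1, and 80.9, 241 and 247 across D2A1-m2. These probes were detected on every subline array but on 1 of the 3 D2A1 arrays, replicate 3, and all 3 probes put the lines in the order D2A1, D2A1-m2, D2A1-m1 within each batch. On D2A1 replicate 2 the detection p of ILMN_2756486, at 0.00855, lay just inside the limit, and the nearest Aqp1 value outside it was 0.0363, of ILMN_2980661 on replicate 1.

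**Figure D1:**
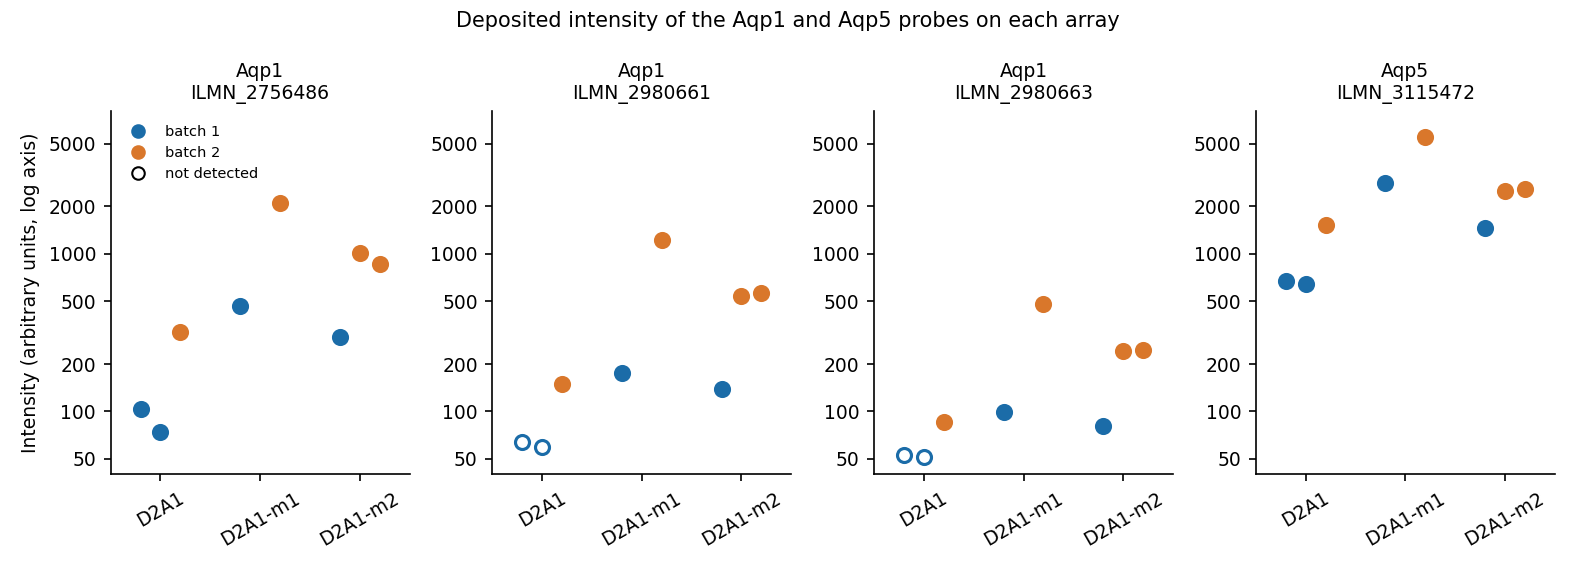
Deposited intensity (arbitrary units, log axis) of the 3 Aqp1 probes and the Aqp5 probe. Each point is 1 array, coloured by batch, and open points were not detected; within a batch each subline array lies above the D2A1 arrays, and within a line each batch 2 array lies above those of batch 1.

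After background correction, quantile normalization and log2 transformation, with the batch as a term in a fit across all kept probes, Aqp1 was higher in D2A1-m1 than in D2A1 by 2.86 ± 0.28 (standard error), 2.74 ± 0.20 and 2.15 ± 0.25 by the probes in the order above. These differences correspond to 7.27-, 6.67- and 4.43-fold, of which the first rests on arrays that all detected the probe and the others on D2A1 means in which 2 of 3 arrays were not above background. In D2A1-m2 the differences from D2A1 were 1.90 ± 0.26, 1.97 ± 0.19 and 1.40 ± 0.23, or 3.74-, 3.91- and 2.64-fold, with the same limit. The direction was thus shared by all 3 probes. For the probe that represented the gene, ILMN_2980661, which had the largest interquartile range, D2A1-m1 stood at 8.56 ± 2.01 (SD, n = 2) on the log2 scale, D2A1-m2 at 8.16 ± 1.13 (n = 3) and D2A1 at 5.46 ± 1.13 (n = 3). With the batch removed the SDs were 0.46, 0.15 and 0.19, and the means 8.56, 7.79 and 5.83. On these values each subline array lay above each D2A1 array, as it did for 29.2% of the 9017 tested genes in D2A1-m1 and 24.5% for the other subline, and each D2A1-m1 array above each D2A1-m2 array, as for 25.3% of genes. Before the batch was removed the same held against D2A1, as for 19.6% and 18.4% of genes. The sublines then overlapped in Aqp1, whereas for 14.4% of genes each D2A1-m1 array lay above each D2A1-m2 array.

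The within-batch differences of Aqp1 ran the same way. By ILMN_2980661, D2A1-m1 exceeded D2A1 by 2.33 in batch 1 and 3.22 in batch 2, and D2A1-m2 exceeded D2A1 by 2.05 in each. Because no D2A1 array of batch 1 detected this probe, the batch 1 differences are better read as bounds, at least 3.41-fold in D2A1-m1 and at least 2.79-fold in D2A1-m2. For ILMN_2980663, undetected on the same arrays, they were at least 1.55-fold and at least 1.14-fold. These bounds set the subline mean against the lowest signal of any detected probe on the D2A1 arrays. By ILMN_2756486, detected on all arrays, D2A1-m1 differed by 2.90 in batch 1 and 2.72 in batch 2, and D2A1-m2 by 2.31 and 1.53. Between the sublines Aqp1 was higher in D2A1-m1 by 0.96 ± 0.28, 0.77 ± 0.20 and 0.74 ± 0.25 by the 3 probes, and by 0.29 in batch 1 and 1.17 in batch 2 for ILMN_2980661. The last 2 values rest on 1 D2A1-m1 array each.

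Aqp5 has 1 probe, ILMN_3115472, which was detected on all 8 arrays. Its intensities were 671, 644 and 1525 on D2A1 replicates 1, 2 and 3. They were 2808 and 5500.3 across D2A1-m1, and 1459, 2519 and 2566 across D2A1-m2. D2A1-m1 was brighter than every array of the other lines, and D2A1 replicate 3 again exceeded D2A1-m2 replicate 1 before normalization. On the log2 scale after normalization D2A1-m1 stood at 11.83 ± 0.50 (SD, n = 2), D2A1-m2 at 10.96 ± 0.27 (n = 3) and D2A1 at 9.86 ± 0.52 (n = 3). The lines then no longer overlapped in Aqp5. Each D2A1-m1 array likewise lay above each D2A1 array for 19.6% of genes. The share was 18.4% for D2A1-m2 above D2A1 and 14.4% for D2A1-m1 above D2A1-m2. The fitted difference from D2A1 was 1.86 ± 0.14 (standard error), or 3.63-fold, in D2A1-m1 and 0.88 ± 0.13, or 1.84-fold, in D2A1-m2. D2A1-m1 exceeded D2A1-m2 by 0.98 ± 0.14, or 1.97-fold. Within batches 1 and 2 these differences were 1.92 and 1.73 for D2A1-m1, 1.09 and 0.67 for D2A1-m2, and 0.82 and 1.06 between the sublines. With the batch removed the SDs of Aqp5 fell to 0.01 to 0.14 within lines, and its order, D2A1-m1 above D2A1-m2 above D2A1, held in each batch.

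**Figure D2:**
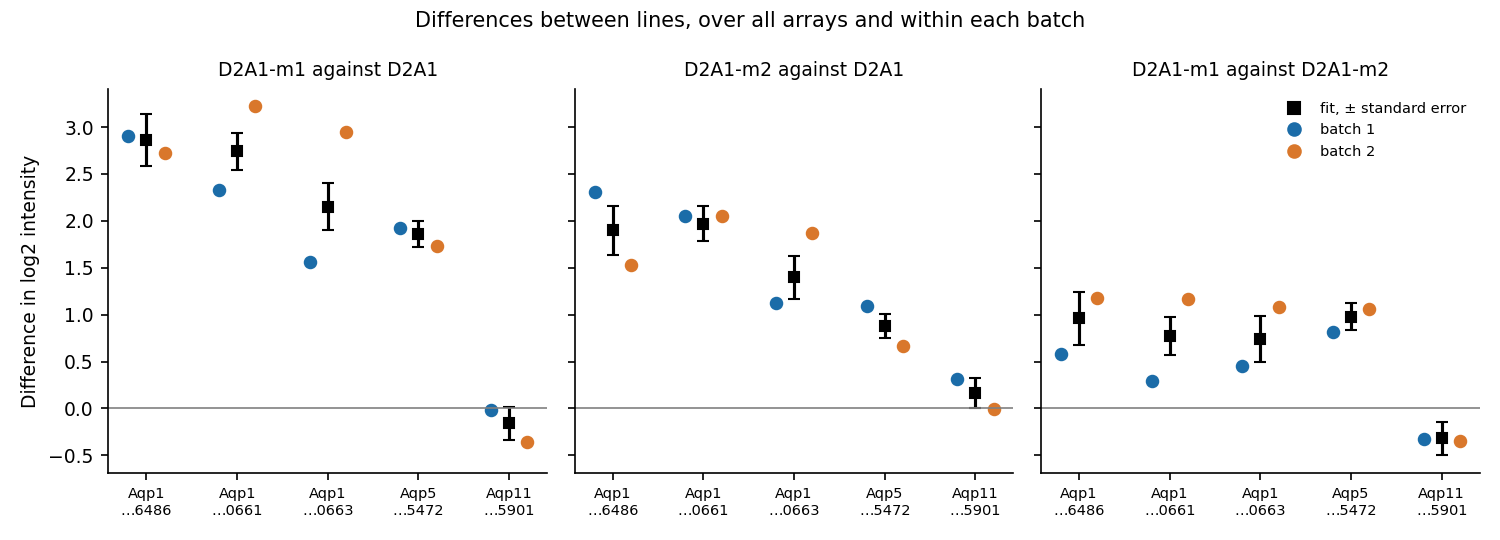
Difference in log2 intensity between lines for the Aqp1 and Aqp5 probes and the kept Aqp11 probe, labelled by gene and the last 4 digits of the probe. Black squares are the fit over all arrays with its standard error, and coloured points the difference of means within each batch; the Aqp1 and Aqp5 points all lie above 0, and those of Aqp11 lie between −0.36 and 0.31.

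Across all genes a gene was called where the limma fit gave at least a 1.5-fold difference and an adjusted p (Benjamini-Hochberg) below 0.05. Of the 4 members, 3 could be tested and 2, Aqp1 and Aqp5, were called higher in D2A1-m1, where 14.6% of the 9017 tested genes were called in either direction, 7.72% higher and 6.84% lower. The same 2 were called higher in D2A1-m2, against 16.2% of all genes in either direction, 8.87% higher and 7.34% lower. Between the sublines 1 member, Aqp5, was called higher in D2A1-m1, against 4.27% of all genes, 2.00% higher and 2.27% lower. Since these contrasts chose the members, the counts carry no weight as evidence. Both comparisons with the parental line use the same D2A1 arrays.

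Aqp3 and Aqp11 gave little or no signal. The Aqp3 probe read 62.5, 63.6 and 59.5 in D2A1, 60.0 and 62.2 across D2A1-m1, and 61.2, 59.9 and 67.5 across D2A1-m2. The lowest of its detection p-values was 0.0331, so no array passed the limit and Aqp3 was not tested. The better of the Aqp11 probes, ILMN_1225901, read 56.0, 65.5 and 65.1 in D2A1, 63.2 and 58.6 across D2A1-m1, and 69.9, 62.1 and 73.3 across D2A1-m2. D2A1-m2 replicate 3 alone passed, at a detection p of 0.00641, and the next array, D2A1-m2 replicate 1, missed at 0.0235. The lines overlapped in these intensities. The fitted Aqp11 differences were −0.16 ± 0.18 in D2A1-m1 and 0.16 ± 0.16 in D2A1-m2 against D2A1, which are no larger than their standard errors. Between D2A1-m1 and D2A1-m2 the difference was −0.32 ± 0.18, for a probe kept only because 1 D2A1-m2 array detected it. No fold is given for a probe so near background. The other Aqp11 probe read 44.8 to 54.9 and was not detected.

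The rest of the family was below the detection limit throughout. The 16 probes of Mip (lens), Aqp2 (collecting duct), Aqp4 (astrocytes), Aqp6 (kidney vesicles), Aqp7 (glycerol channel of fat), Aqp8 (colon and mitochondria), Aqp9 (glycerol channel of liver) and Aqp12 (pancreas) read 41.9 to 67.2. Their lowest detection p was 0.0256, for Aqp4. In the RefSeq order of protein-coding genes on chromosome 15, Aqp5 lies between Aqp2 and Aqp6. Both Aqp2 probes and both Aqp6 probes were undetected on every array on which Aqp5 was bright, reading at most 67.2 and 54.0. At these intensities a low level cannot be told from none.

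**Figure D3:**
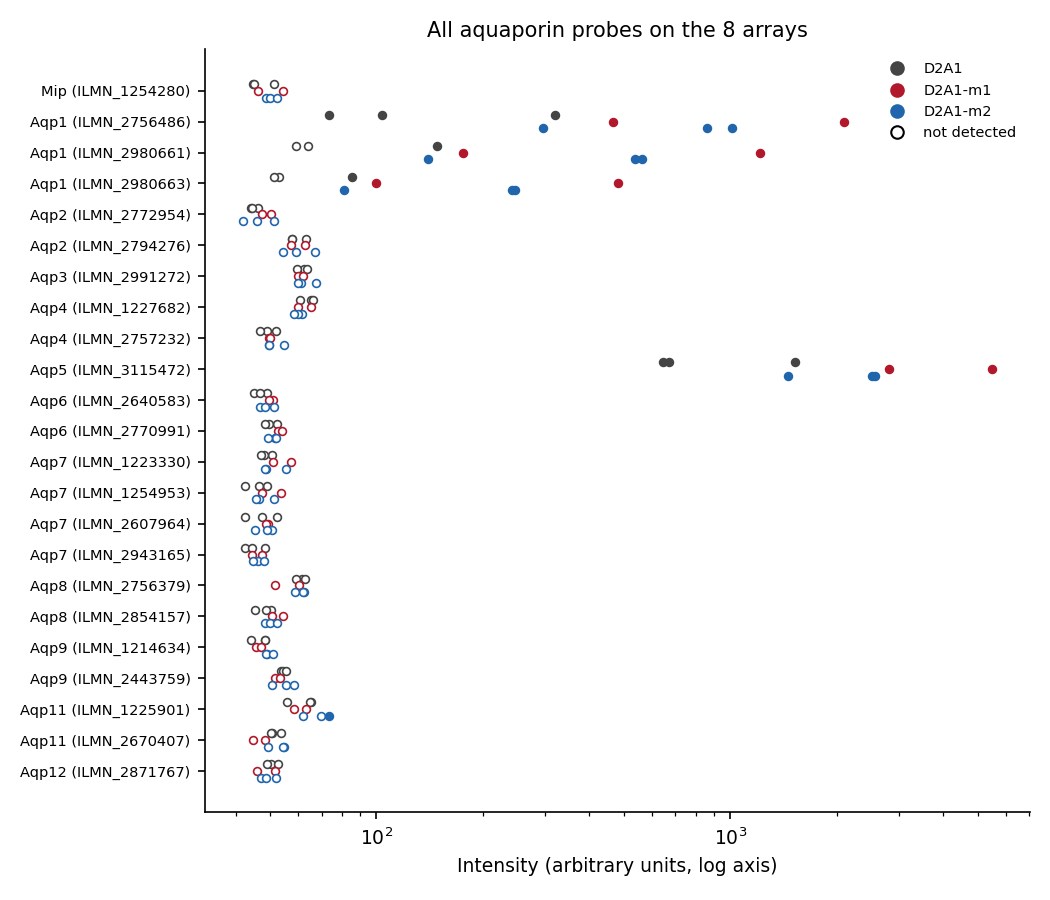
Deposited intensity (arbitrary units, log axis) of the 23 aquaporin probes on the 8 arrays, coloured by line, with open points for arrays that did not detect the probe. Only the Aqp1 and Aqp5 probes leave the background band of 41.9 to 73.3, which holds 1 detected Aqp11 value; levels of different probes are not comparable with each other.

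The batch was not used to choose the members, and it was compared in the same fit. Aqp1 was 2.19 ± 0.17 higher on the log2 scale in batch 2, or 4.57-fold (limma, adjusted p = 0.00101), where 8.69% of genes were called and 4.14% were called higher. This was the largest absolute difference among the 9017 genes, followed by 1.51 and 1.49 for the next genes, against a median of 0.223. The 3 Aqp1 probes held ranks 1, 2 and 3 among 14107 kept probes, at 2.19, 1.85 and 1.84, so the choice of probe did not decide the place of the gene. Every line showed it by ILMN_2980661, with batch 2 above batch 1 by 2.84 in D2A1-m1, by 1.95 in D2A1-m2 and by at least 1.38 (at least 2.61-fold) in D2A1, whose batch 1 arrays did not detect it. A difference in batch shift between the lines did not pass (limma, adjusted p = 1, unadjusted 0.0413), in a fit with no more than 2 residual degrees of freedom. By ILMN_2756486, detected throughout, the shifts were 2.18 in D2A1, 2.00 in D2A1-m1 and 1.40 in D2A1-m2. D2A1 replicate 3, of batch 2, thus read close to D2A1-m2 replicate 1, of batch 1.

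Aqp5 was also brighter in batch 2, by 0.68 ± 0.11 or 1.60-fold (limma, adjusted p = 0.00593), a difference that 4.81% of genes equalled or exceeded. It was 0.89 in D2A1, 0.70 in D2A1-m1 and 0.46 in D2A1-m2. Aqp11 differed by −0.07 ± 0.14 (limma, adjusted p = 0.734). More probes were detected on batch 2 arrays, as given above, and the part of this in the shift was not tested. The labels name the batch only by number and the methods apply it to the microarray work, so differences between the cultures and between the hybridisations of the batches cannot be told apart.

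**Figure D4:**
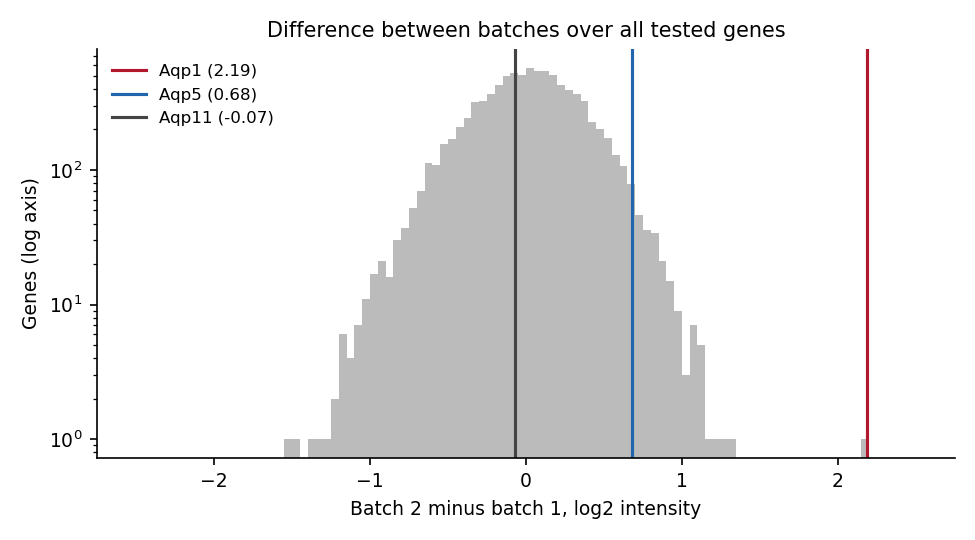
Distribution over the 9017 tested genes of the difference between batch 2 and batch 1 (log2 intensity, adjusted for line), with the number of genes on a log axis. Vertical lines mark Aqp1 at 2.19, outside all other genes, Aqp5 at 0.68 and Aqp11 at −0.07.

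Markers of cells that are rich in Aqp1 or Aqp5 were largely absent. Of 11 endothelial markers, 10, among them Pecam1, Cdh5 and Kdr, were detected on no array. The other, Egfl7, fell by 1.39 in D2A1-m1 and by 1.59 in D2A1-m2 (limma, adjusted p = 0.000124 and 3.64e-05). The summed normalized intensity of this list was 566 to 710 in D2A1, 371 to 382 in D2A1-m1 and 367 to 368 in D2A1-m2, with Egfl7 its 1 detected gene. All 4 erythroid markers on the array, among them Hba-a1 and Alas2, were undetected. Of 11 lung epithelial markers, 8 were detected on no array, including Sftpc, Scgb1a1 and Pdpn, and the sum was 1040 to 1220 in D2A1, 849 to 944 in D2A1-m1 and 642 to 800 in D2A1-m2. Abca3, a lipid transporter of alveolar cells, made up most of it and fell by 0.84 in D2A1-m2 (limma, adjusted p = 0.00267). Hopx, a marker of flat alveolar cells, rose by 0.70 in D2A1-m2 (limma, adjusted p = 0.0093) and differed by 0.23 in D2A1-m1 (limma, adjusted p = 0.35). Ager, the other tested gene of the list, differed by −0.24 in D2A1-m2 (limma, adjusted p = 0.397) and by −0.10 in D2A1-m1 (limma, adjusted p = 0.775). Hopx was detected in D2A1-m2 only and Ager in D2A1 only. The sum of the mammary epithelial markers was higher in both sublines, at 752 to 848 in D2A1, 1240 to 1580 in D2A1-m1 and 1180 to 1510 in D2A1-m2. It overlapped between the sublines, as Aqp1 did before the batch was removed and Aqp5 did not. Unlike Aqp1 and Aqp5, this sum was higher in D2A1-m1 in batch 1 (1580) than in batch 2 (1240). Krt8 and Muc1 were called higher in both sublines and Krt18 lower in D2A1-m2. The part of these lists in the result was not tested.

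Among 27 genes of cell volume control and osmolyte transport, 18 were tested. In D2A1-m1 2 rose, 1 fell and 15 were not called, and in D2A1-m2 3 rose, 1 fell and 14 were not called, while 14.6% and 16.2% of all tested genes were called, so that the counts were near those shares. The median difference was 0.20 and 0.16, against 0.01 and 0.00 over all tested genes. Stk39, a kinase that phosphorylates sodium, potassium and chloride cotransporters, read 8.67, 8.78 and 8.92 in D2A1 on the log2 scale, 6.75 and 6.57 across D2A1-m1, and 6.76, 7.35 and 7.29 across D2A1-m2. Stk39 fell by 2.17 in D2A1-m1 and by 1.73 in D2A1-m2 (limma, adjusted p = 3.85e-05 and 1e-04).

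Slc6a6, the taurine transporter, read 5.74, 5.07 and 5.63 in D2A1, 7.19 and 7.36 across D2A1-m1, and 6.21, 6.59 and 6.37 across D2A1-m2. It rose by 1.76 in D2A1-m1 and by 0.83 in the other subline, a gap of 0.93 between them (limma, adjusted p = 0.000287, 0.0078 and 0.0292). Its order across the lines was that of Aqp1 and Aqp5, but its other kept probe differed by only 0.30 in D2A1-m1. Slc12a7, a potassium and chloride cotransporter, was detected on no D2A1 array and on all subline arrays, so it was tested only through the sublines. It was at least 1.63-fold higher in D2A1-m1 and at least 1.48-fold higher in D2A1-m2, the latter below the 1.5-fold limit. Its calls came from the unbounded differences of 1.09 and 0.95 (limma, adjusted p = 0.00297 and 0.00322), which rest on background readings in D2A1. Trpv4, a cation channel that opens on cell swelling, was 0.60 higher in D2A1-m2 (limma, adjusted p = 0.0447), with 1.00 in batch 1 and 0.16 in batch 2, and is named only because it completes the count.

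Of 18 genes of carbonic anhydrases and acid transport, 7 were tested. Car5b, a mitochondrial carbonic anhydrase, rose in both sublines, by 1.37 in D2A1-m1 and 0.90 in D2A1-m2 (limma, adjusted p = 0.000434 and 0.00233), and the other 6 were not called, again near the 14.6% and 16.2% of all genes. It read 8.08, 7.67 and 8.28 in D2A1, 9.36 and 9.50 across D2A1-m1, and 8.82, 9.21 and 8.99 across D2A1-m2. Its 3 other kept probes gave 0.97 to 1.09 in D2A1-m1 and 0.71 to 0.76 in D2A1-m2, so that all of them ran the same way. Of 12 genes of glycerol metabolism, 8 were tested and none was called in D2A1-m1. In D2A1-m2 1 fell, Gpd2, the mitochondrial glycerol phosphate dehydrogenase, by 0.68 (limma, adjusted p = 0.0403), while its arrays overlapped between the lines, and 1 of 8 is likewise near the 16.2% of all genes. The median differences of the carbonic anhydrase list were −0.02 in each subline, and those of the glycerol list −0.03 and 0.02.

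**Figure D5:**
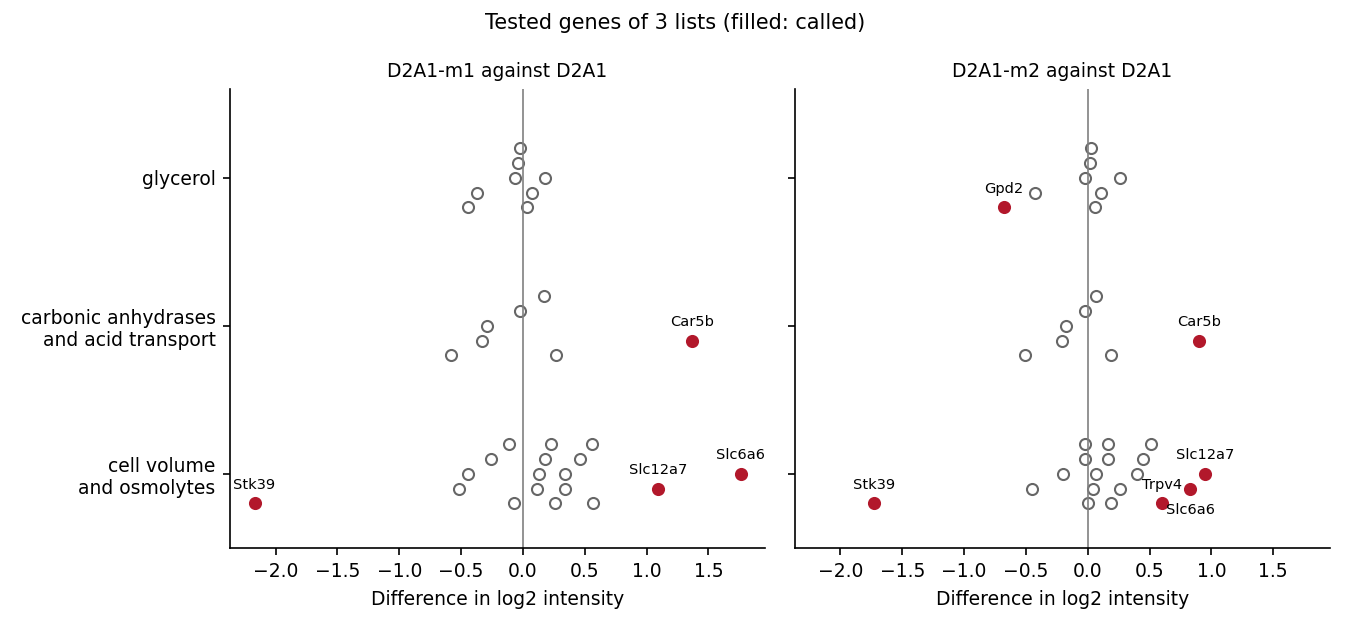
Difference in log2 intensity from D2A1 for each tested gene of 3 lists in D2A1-m1 and D2A1-m2, with filled and labelled points for genes that were called. Stk39 lies farthest to the left, at −2.17 and −1.73, and most genes lie near 0 and were not called.

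The genes whose pattern over the 8 arrays was nearest to that of Aqp1 or Aqp5 were found with the batch removed and each gene centred on its mean. Likeness was measured as the root mean square difference on the log2 scale. Nearest to Aqp1 were Prr33 (0.13), Cemip (0.17), which takes part in hyaluronan breakdown, Piwil4 (0.23), Angptl4 (0.24), an inhibitor of lipoprotein lipase, and 1700012B09Rik (0.25). Their fitted differences from D2A1 were 2.47 to 2.97 in D2A1-m1 and 1.62 to 2.40 in D2A1-m2. These genes did not share the batch difference of Aqp1, with batch values of −0.07 for Prr33, 0.16 for Cemip, 0.35 for Piwil4, −0.46 for Angptl4 and −0.04 for 1700012B09Rik, none of which was called.

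Nearest to Aqp5 were Gprc5b (0.12), an orphan receptor, Upp1 (0.13), a uridine phosphorylase, Sema5a (0.15), a semaphorin, Pip5k1b (0.15), a lipid kinase, and S100a4 (0.17), a calcium-binding protein. They differed from D2A1 by 1.75 to 1.90 in D2A1-m1 and by 0.72 to 1.12 in D2A1-m2. Aqp1 and Aqp5 were 0.54 apart on this scale, so that 73 genes were nearer to Aqp1 than Aqp5 was, and 637 nearer to Aqp5 than Aqp1 was. The pair shared the order of the lines. The step from D2A1 to D2A1-m2 was 1.97 ± 0.19 in Aqp1 and 0.88 ± 0.13 in Aqp5. That from D2A1-m2 to D2A1-m1 was more alike, at 0.77 ± 0.20 and 0.98 ± 0.14.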

How the data were processed

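The authors deposited intensity values per probe and array, neither background-subtracted nor normalized, with a detection p-value for each, and a table of log2-scale processed values. For that table they removed probes undetected on all arrays, applied a variance-stabilising transformation and robust spline normalization in lumi (version not given in the sources used here) and corrected the batch with ComBat. Intensities were processed here in R 4.3.3 with limma 3.58.1 (neqc, offset 16), and 16462 probes detected at p of at most 0.01 on any array were kept. Of these, 14107 name 1 gene, and the probe of largest interquartile range stood for each of 9017 genes. Lines and batch were fitted together over 8 arrays (lmFit, eBayes), with 4 residual and 5.23 prior degrees of freedom. The p-values measure the spread between cultures that the methods call independent. The number of arrays limits the precision. The fit was tested on simulated data. A fold against a line that detected no probe is a bound for this processing. The members and lists were chosen with earlier results of these data known. Besides the members and the other aquaporins, the genes named were the 2 of largest difference among those called per list and subline, marker genes, and the 5 genes nearest to Aqp1 and to Aqp5. Alternatives covered background correction, offset, filter, probe, batch, prior, pairing, the methods' t-test and each array left out.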

Additional observations from a re-analysis of the deposited data

How the results depend on the processing

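Under 23 alternatives Aqp1 and Aqp5 were higher in each subline than in D2A1, and higher in D2A1-m1 than in D2A1-m2. Aqp1 in D2A1-m2 ranged from 1.07 (probe ILMN_2756486) to 2.70 on the log2 scale. Since these contrasts chose the members, the calls listed here carry no weight as evidence. With the authors' processed values, 3.98% of genes were called in D2A1-m1, 3.66% in D2A1-m2 and 1.03% between the sublines. With no batch term these shares were 9.71%, 14.3% and 0.776%. In D2A1-m1 Aqp1 was not called with no batch term (3.10) or by the methods' t-test, at an unadjusted p under 0.001 or after Benjamini-Hochberg (1.77 in both, by ILMN_2756486). That test was run here with a plain pooled variance for 2 lines at a time. The variance setting of the program that the methods name, BRB-ArrayTools, was not found in the methods, so these calls and counts are not those of the study. Aqp5 in D2A1-m1 was lost after Benjamini-Hochberg in that t-test (1.63), and Aqp5 in D2A1-m2 in batch 1 alone (1.09). Where every line kept more than 1 array, Aqp1 was called between the sublines with the authors' processed values (0.70, by ILMN_2756486). It was also called there with a trended and robust prior (0.77) and without D2A1 replicate 2 (0.77). By ILMN_2980661, the probe of the main fit, the processed difference was 0.48, or 1.39-fold, below the limit of 1.5-fold. For that probe the processed differences from D2A1 were 1.31 in D2A1-m1 and 0.84 in D2A1-m2. Aqp1 between the sublines was 1.17 in batch 2 alone and ranged from 0.27 to 1.17 with arrays left out. Aqp5 between the sublines was not called with no batch term (0.87), in batch 1 alone (0.82), by either form of the t-test (0.91), or without D2A1-m1 replicate 1 (0.99) or replicate 2 (0.96), in a leave-out range of 0.91 to 1.12. In these comparisons of a lone array its spread was assumed to equal that of the others. The causes were not tested. Aqp11 turned to 0.14 in D2A1-m1 when a replicate block was added to the batch term, and to −0.01 in D2A1-m2 in batch 2 alone, and was never called. Aqp3 entered only with no detection filter, at −0.14 in D2A1-m1, −0.07 in D2A1-m2 and −0.08 between them, and was not called.

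The genes called in D2A1-m1 against D2A1, 1313, became 359 with the authors' processed values, 189 in batch 1 alone, and 31 and 0 by the t-test at an unadjusted p under 0.001 and after Benjamini-Hochberg, and 486 to 1488 with arrays left out (486 and 703 without D2A1-m1 replicates 1 and 2). Those in D2A1-m2, 1462, fell to 921 where the background was left in, 917 at an offset of 50, 330 with the processed values, 144 in batch 1 alone, and 86 and 243 by the t-test. Between the sublines 385 became 255 with the background left in, 252 at that offset, 93 with the processed values, 214 with no detection filter, 70 with no batch term, 0 and 661 in batches 1 and 2 alone, 15 and 0 by the t-test, and 31 to 563 with arrays left out (55 and 31 without D2A1-m1 replicates 1 and 2, and 171, 115 and 84 without D2A1-m2 replicates 1, 2 and 3).

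Replicate numbers did not pair the cultures. With the batch removed, the deviations of same-numbered arrays from their line means correlated at −0.428 to 0.318 over genes. With a replicate block replacing the batch term, Aqp5 between the sublines was 1.07, no longer called, and 97 genes were called there. With the replicate block beside the batch term it was 1.00 and called, as were 464 genes.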

Other observations

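In the comparison of the batches, Lrrc8a, a subunit of the volume-regulated anion channel, was higher in batch 2 and Clcn3, a chloride and proton exchanger, lower, out of 18 tested genes of cell volume control. Car12, a carbonic anhydrase of the cell surface, was lower among 7 genes of its list and Gpd2 lower among 8 genes of glycerol metabolism. The median batch differences of these lists were 0.11, 0.16 and 0.06 on the log2 scale, against 0.02 over all tested genes, and the counts were near the 8.69% of all genes called between the batches. The choice of these names followed from their values.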
